A study of Danio rerio with 30 samples.

Results

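Copper (Cu) at 0.6 was set against chlorpyrifos (CPF), an organophosphate insecticide, at 0.6, in olfactory tissue of adult zebrafish. The comparison used 6 of the 30 arrays of the series: the 3 arrays labelled with copper at 0.6 and no CPF, and the 3 labelled with CPF at 0.6 and no copper. The whole series held 10 groups of 3 arrays. The other groups had Cu alone at 0.25 or 0.1, CPF alone at 0.25 or 0.1, or Cu at 0.25 added to CPF at 0.1, 0.25 or 0.6, and a control had neither agent. All fish were adults of the AB strain, 1 year old. The sources used here give no unit for the concentrations, so the shared number 0.6 does not show that the exposures were equal in molar or toxic terms, and they give no exposure time. The source field of the labels names the olfactory rosettes, the paired organs that carry the olfactory epithelium, while the field for tissue lists the olfactory bulbs and telencephalons as well. Neuron markers of the bulb and telencephalon were bright on all 6 arrays, with a mean over 15 genes of 9.73 to 9.92 on the log2 scale in Cu 0.6 and 9.60 to 10.07 in CPF 0.6. Values are deposited log2 expression values, called levels here. Nothing in the labels says that arrays of a group came from separate exposures, so the p-values rest on a spread among arrays that may be technical. That spread was pooled over all 10 groups, so most of it comes from arrays outside this comparison.

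Olfactory sensory neurons reach the water at the surface of the olfactory epithelium, carry odorant receptors coupled to G proteins, and are replaced through life from dividing basal cells. Dissolved copper is known as a toxicant of these neurons in fish. Chlorpyrifos acts through its oxon, which inhibits acetylcholinesterase, the enzyme that breaks down acetylcholine at synapses. Set side by side, the 2 groups show in which transcripts the arrays labelled with a metal differed from those labelled with an organophosphate.

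The 6 arrays were alike over all probe sets. Correlations were 0.993 among Cu 0.6 arrays, 0.986 to 0.992 among CPF 0.6 arrays and 0.986 to 0.992 between the groups. The sample titles carry dates, read here as 3 title batches, and nothing says what the dates record. Cu 0.6 replicates 1 and 3 and CPF 0.6 replicate 2 were in title batch 2, Cu 0.6 replicate 2 in title batch 3, and CPF 0.6 replicates 1 and 3 in title batch 1, so only title batch 2 held both groups. Among the 6 arrays, CPF 0.6 replicate 2 also stood apart in some transcripts of pancreas and liver. Summed on the linear scale, 17 exocrine pancreas genes reached 578 units there, against 185 and 198 on the other CPF 0.6 arrays and 196 to 232 on the Cu 0.6 arrays. The control arrays were also above those other 5 treated arrays, at 383 to 461 units. On the log2 scale, transferrin-a (tfa), an iron carrier made by the liver, stood at 11.78 on that array, against 4.30 and 5.37 on the other CPF 0.6 arrays and 4.75 to 6.04 with Cu 0.6. Serum amyloid A (saa), an acute-phase protein, stood at 12.39 there, against 4.67 and 6.51 on the other CPF 0.6 arrays and 5.16 to 6.21 with Cu 0.6. Both genes were picked here after their values were seen. Other arrays differed in transcripts of other tissues as well. The sum of 24 retina and lens genes was 458 to 955 units in Cu 0.6 and 241 to 341 in CPF 0.6. That of 12 erythrocyte genes was 18008 on Cu 0.6 replicate 1 and 14862 on CPF 0.6 replicate 3, against 5380 to 8479 on the rest of the compared arrays. The part of these transcripts in the differences below was not tested.

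The olfactory tissue of Cu 0.6 fish had lower levels of genes of mature olfactory sensory neurons, of several calcium-binding proteins and of cytokine feedback inhibitors than that of CPF 0.6 fish, and higher levels of several DNA replication genes. Of 15502 probe sets tested with limma, 126 (0.813%) passed an adjusted p of 0.05, 43 of them higher with Cu 0.6 (0.277%) and 83 lower (0.535%). The differences that passed were larger on the lower side, with a median of −1.19 on the log2 scale, against 0.56 on the higher side. At least 2-fold differences numbered 50 among the lower and 6 among the higher probe sets. An unadjusted p under 0.05 was reached by 1514 probe sets. Counted as genes, each by its probe set with the highest mean, 93 of 8793 passed (1.06%), 38 higher (0.432%) and 55 lower (0.625%). Counts of list members below are to be read beside these shares. The arrays of the groups did not overlap in 124 of the 126, which were chosen by p-value with these same arrays. Over all probe sets the Cu 0.6 arrays lay above all CPF 0.6 arrays in 6.86% and below them in 5.04%. The 12 highest and 12 lowest genes named below were taken only from genes without overlap, so their separation comes with the choice. All 126 kept their sign in each alternative setting that measured them, and the filters at 4 and 6 left 122 and 110 of them to measure. Each setting reuses arrays on which the 126 were chosen, and the filters cannot change a difference. A kept sign therefore comes largely with the choice. The count of 126 rests on the pooled spread, and 2 probe sets passed when only the 6 compared arrays were fitted with no batch term. It also rests on single arrays: it was 51 without Cu 0.6 replicate 3, 13 without CPF 0.6 replicate 2 and 255 without CPF 0.6 replicate 3. Of the 126, 10 passed in all 6 fits that left out 1 array, 26 in 5, 9 in 4, 13 in 3, 40 in 2, 27 in 1 and 1 in 0. The 12 probe sets that passed both with all arrays and without CPF 0.6 replicate 2 included those of socs1a, socs3a, pvalb5, abhd2b, ssh2a, dut and pcna, all described here, and without that array the 126 differences had a median size of 0.906 times the size with it.

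**Figure D1:**
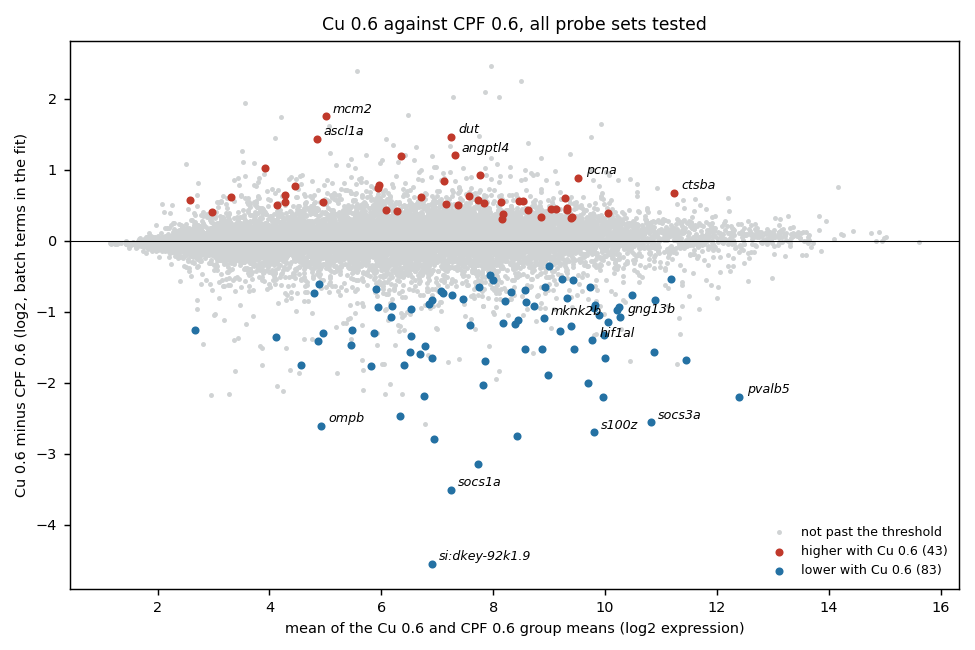
Difference of Cu 0.6 minus CPF 0.6 (log2, vertical axis) against the mean of both group means (log2 expression, horizontal axis) for each of the 15502 probe sets; red points were higher and blue points lower with Cu 0.6 past the threshold. The lower probe sets reach down to −4.55, while the higher ones end at 1.75.

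The largest difference was at si:dkey-92k1.9, a gene known only by its clone name. Its levels were 4.4, 4.59 and 5.17 in Cu 0.6 and 9.71, 9.84 and 7.73 in CPF 0.6, against 9.27, 8.83 and 9.58 in control. Every Cu 0.6 array lay below every CPF 0.6 array, and the CPF 0.6 arrays spread to both sides of the control arrays. The difference of −4.55 ± 0.69 (SE, log2) is a 23.4-fold lower level with Cu 0.6 (adjusted p = 0.0025).

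Markers of the olfactory sensory neuron were also lower. Olfactory marker protein, encoded by ompb, marks mature olfactory neurons. Its levels were 3.56, 3.89 and 3.60 in Cu 0.6 and 6.68, 6.36 and 5.45 in CPF 0.6, against 6.28, 5.5 and 6.69 in control. The Cu 0.6 values were low and close together, near those of dim probe sets, while the CPF 0.6 values lay within or at the edge of the control range. The difference was −2.61 ± 0.41 (adjusted p = 0.00273).

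S100z, a calcium-binding protein of crypt olfactory neurons in zebrafish, had levels of 8.38, 8.13 and 8.85 in Cu 0.6 and 11.38, 11.81 and 10.24 in CPF 0.6. The groups did not overlap, and CPF 0.6 replicate 3 was the lowest of its group, as it was for ompb. The difference was −2.70 ± 0.41 (adjusted p = 0.00273). Calretinin (calb2a), a calcium buffer of olfactory neurons, had levels of 8.59, 8.75 and 8.93 in Cu 0.6 and 10.98, 11.09 and 9.90 in CPF 0.6, again with no overlap, and a difference of −2.0 ± 0.31 (adjusted p = 0.00273). The G protein gamma subunit gene gng13b had levels of 9.72, 9.97 and 9.64 in Cu 0.6 and 10.94, 10.90 and 10.44 in CPF 0.6. Its difference of −1.07 ± 0.17 was smaller but passed as well (adjusted p = 0.00284), and here the CPF 0.6 arrays also lay below the lowest control array, at 10.95.

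Of 5 olfactory sensory neuron markers measured, these 4 were lower with Cu 0.6 and 0 were higher. The remaining one, calb2b, was at 2.27 to 2.36 in Cu 0.6 and 2.33 to 2.39 in CPF 0.6, near the lowest values of the arrays. In the list of 9 olfactory transduction genes, which shares ompb, s100z and gng13b, those 3 were lower and the other 6 did not pass, among them the G protein alpha subunits gnai2a, gnai2b and gnao1a and the arrestins arrb2a and arrb2b. The median of that list was −0.01 and 4 of its differences were positive. On the linear scale the 5 markers summed to 1578 to 1761 units per Cu 0.6 array and 3605 to 7767 per CPF 0.6 array, against 6535 to 8563 in control. In such bulk tissue, fewer cells of a type and less RNA per cell cannot be told apart. Without CPF 0.6 replicate 2, 0 of the 5 passed, with a list median of −1.76, against −2.0 with all arrays. Within title batch 2 the median was −2.33, a value set against that same array alone as its CPF 0.6 arm.

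Odorant receptors bind the odorants. Of 23 measured, 2 were lower with Cu 0.6 (or42c1 and or30bx1), 0 were higher, and 22 had a negative difference, against 4340 of all 8793 genes. All 3 Cu 0.6 arrays lay below all CPF 0.6 arrays for 12 of the 23, where 5.16% of all genes did. The list median was −0.27, but 18 of the 23 had both group means under 4, where a dim probe set can show little of a fall. For or42c1 the levels were 3.68, 3.52 and 3.31 in Cu 0.6 and 5.28, 5.03 and 3.93 in CPF 0.6, a difference of −1.35 ± 0.30 (adjusted p = 0.0329) between groups that did not overlap. For or30bx1 the group means were 2.08 in Cu 0.6 and 3.27 in CPF 0.6, a difference of −1.26 ± 0.30 (adjusted p = 0.0455). It was dim in both groups, and only 1 of the 30 arrays of the series had a level above 4. When single arrays were dropped, both receptor calls held only in the fit lacking CPF 0.6 replicate 3. Both were also lost without title batch 3 and with quantile normalization. Probe sets of related receptors can share sequence, so counts of receptors are not counts of independent genes.

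**Figure D2:**
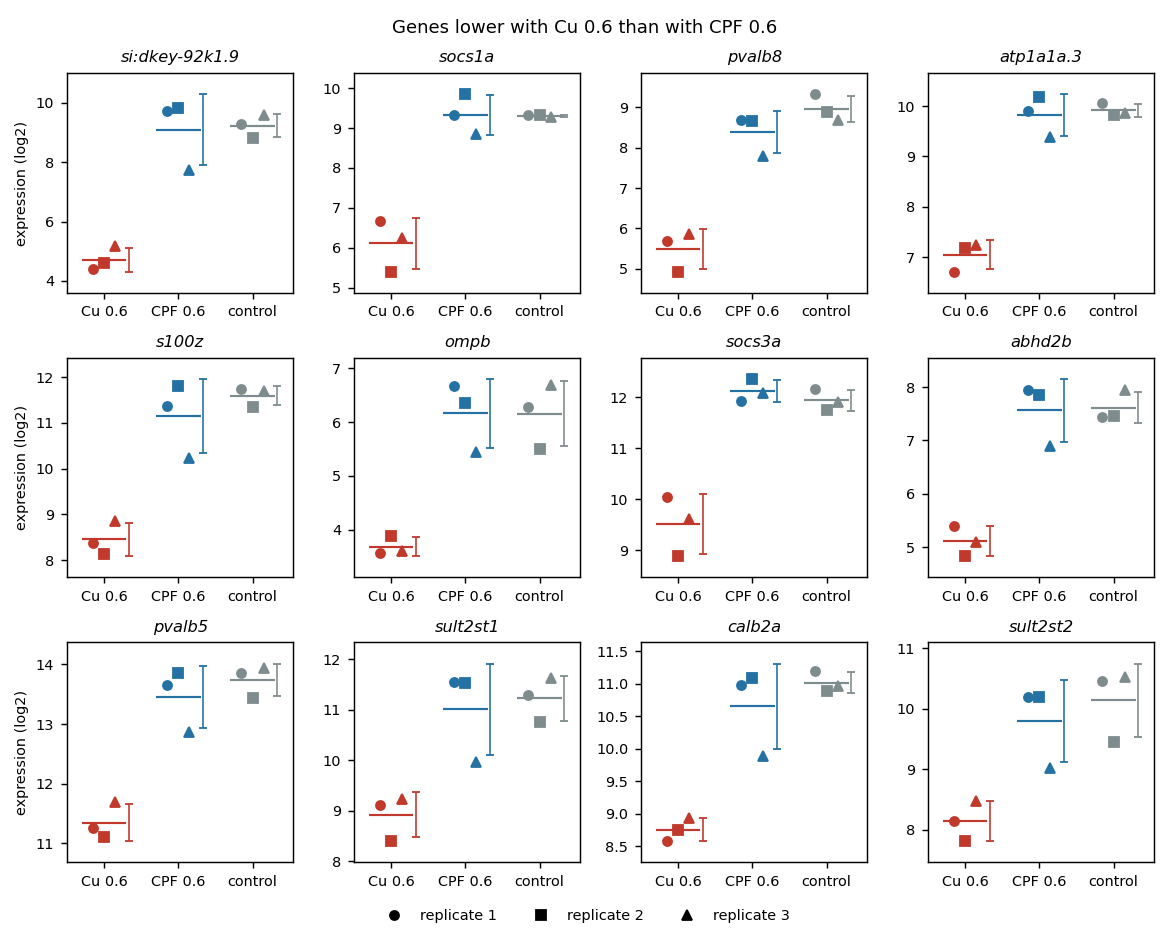
Levels (log2 expression) of the 12 named genes with the lowest difference, one panel a gene, for Cu 0.6, CPF 0.6 and control arrays; points are arrays, horizontal lines are means and bars are SDs over 3 arrays. The naming rule required no overlap, so in every panel the 3 Cu 0.6 arrays lie below all CPF 0.6 arrays. In most panels CPF 0.6 replicate 3 is the lowest of its group.

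Of the other calcium buffers, a pair of parvalbumins were lower as well. Parvalbumin 5 (pvalb5) was among the brightest genes that passed, at 11.26, 11.10 and 11.69 in Cu 0.6 and 13.65, 13.86 and 12.87 in CPF 0.6. The groups were more than 1 log2 unit apart at their nearest arrays, and the difference was −2.20 ± 0.29 (adjusted p = 0.000703). Parvalbumin 8 (pvalb8) had levels of 5.68, 4.93 and 5.85 in Cu 0.6 and 8.70, 8.67 and 7.79 in CPF 0.6, a difference of −2.80 ± 0.52 (adjusted p = 0.0104). In all, 4 of 25 genes for calcium-binding proteins were lower (s100z, calb2a, pvalb5 and pvalb8) and 0 higher, where 0.625% of all genes passed as lower. The list median was −0.04 and 11 of the 25 had a positive difference. Only pvalb5 of the 4 passed without CPF 0.6 replicate 2.

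Enzymes and an ion pump were among the lowest genes too. The hydrolase gene abhd2b had levels of 5.40, 4.84 and 5.1 in Cu 0.6 and 7.95, 7.85 and 6.89 in CPF 0.6, against 7.43, 7.46 and 7.95 in control. Its groups did not overlap, and its difference of −2.46 ± 0.31 (adjusted p = 0.000617) passed whichever of the 6 arrays was left out. The cytosolic sulfotransferases, which add sulfate to steroids and foreign compounds, were represented by sult2st1, at −2.20 ± 0.39 (adjusted p = 0.00796), and sult2st2, at −1.90 ± 0.37 (adjusted p = 0.0131). They were the 2 of 31 conjugation and xenobiotic enzyme genes that passed, both lower, and 0 of the 31 passed without CPF 0.6 replicate 2 or without title batch 3. Probe sets of such near copies may share signal. The sodium pump alpha subunit atp1a1a.3 had levels of 6.71, 7.18 and 7.24 in Cu 0.6 and 9.90, 10.19 and 9.38 in CPF 0.6, with no overlap and a difference of −2.75 ± 0.49 (adjusted p = 0.00777). With the pump's beta subunit atp1b1a, at −0.76 ± 0.17 (adjusted p = 0.0382), it made 2 of 26 sodium pump and ion transport genes that were lower, and 0 were higher. Without CPF 0.6 replicate 2, 0 of the 26 passed, and 1 passed without Cu 0.6 replicate 1, Cu 0.6 replicate 2 or CPF 0.6 replicate 1.

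The feedback inhibitors socs1a and socs3a were lower with Cu 0.6. Suppressors of cytokine signalling (SOCS) are induced by the JAK and STAT pathway and shut it off. For socs1a the levels were 6.67, 5.41 and 6.25 in Cu 0.6 and 9.33, 9.84 and 8.84 in CPF 0.6, against 9.32, 9.32 and 9.28 in control. The CPF 0.6 arrays lay around the control level, and the Cu 0.6 arrays lay far below both. The difference was −3.15 ± 0.43 (adjusted p = 0.000844), and its second probe set gave −3.51. For socs3a the levels were 10.04, 8.88 and 9.62 in Cu 0.6 and 11.93, 12.36 and 12.08 in CPF 0.6, with no overlap and a difference of −2.56 ± 0.36 (adjusted p = 0.00121). Both genes passed whichever array was left out.

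Of 37 genes for cytokine feedback and inflammation, 5 were lower and 0 higher, where 0.625% of all genes passed as lower. The list median was −0.11. The others that were lower than with CPF 0.6 were cebpd, a transcription factor of the acute-phase response, at −1.33 ± 0.23, junba, a subunit of the AP-1 transcription factor, at −1.21 ± 0.23, and nfkbiab, an inhibitor of NF-kappa-B, at −1.14 ± 0.27. A second probe set of cebpd did not pass, at −0.23. Without CPF 0.6 replicate 2, the array high in saa, 2 of the 37 passed. The summed level of 5 neutrophil markers was 877 to 1069 units in Cu 0.6 and 695 to 3219 in CPF 0.6, highest on that same array, and its part in these differences was not tested.

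Values of a pair of related genes are given by concentration, and they were named after their values were seen. The STAT5 targets cisha and cishb, SOCS family genes, were lower with Cu 0.6 at −1.59 ± 0.29 (adjusted p = 0.00806) and −1.26 ± 0.22 (adjusted p = 0.00777). Levels of cisha were 6.02, 5.69 and 6.0 in Cu 0.6 and 7.47, 7.43 and 7.57 in CPF 0.6, groups that were each tight and did not overlap. At 0.25 the difference of copper from CPF had the other sign for both, 0.72 for cisha and 0.36 for cishb, without passing. The change in the difference between 0.25 and 0.6 had an adjusted p of 0.126 for cisha and 0.233 for cishb, so it did not pass over all probe sets.

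Immediate early genes are transcribed within minutes of a stimulus. The list used here also holds clock-linked early genes. Of 49 measured, 0 were higher with Cu 0.6 and 4 were lower: the phosphatase dusp1, junba, the neuronal activity factor npas4a and the stress gene gadd45ba. Over all genes 0.625% passed as lower. Levels of dusp1 were 7.75, 8.04 and 8.46 in Cu 0.6 and 9.41, 10.36 and 9.18 in CPF 0.6, a difference of −1.53 ± 0.30 (adjusted p = 0.0131). Levels of junba were 8.87, 8.86 and 8.73 in Cu 0.6 and 9.40, 10.20 and 10.28 in CPF 0.6, against 9.22, 8.80 and 9.09 in control. Neither gene overlapped between the groups, and they differed in where control lay. The Cu 0.6 arrays of dusp1 were below all control arrays, at 9.12 to 9.37, whereas those of junba lay by the control arrays and its CPF 0.6 arrays above them.

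Over the list, 40 of 49 genes had a negative difference and the median was −0.48, beside a median of 0.00 over all genes. All 3 Cu 0.6 arrays lay below all CPF 0.6 arrays for 22 of the 49, where 5.16% of all genes did. Set against the control arrays, which both groups share, the list median was −0.21 for Cu 0.6 and 0.26 for CPF 0.6. Without CPF 0.6 replicate 2, 0 of the 49 passed and the median was −0.44.

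Some genes of DNA replication and cell division were higher with Cu 0.6. Of 63 measured, 8 passed as higher (dut, fen1, mcm2, mcm3, nusap1, pcna, pola1 and pola2) and 0 as lower. Over all genes 0.432% passed as higher. Proliferating cell nuclear antigen (pcna), the sliding clamp of DNA polymerases, had levels of 9.75, 9.82 and 10.25 in Cu 0.6 and 8.96, 9.24 and 9.12 in CPF 0.6, against 9.45, 9.52 and 9.52 in control. All Cu 0.6 arrays were above control and all CPF 0.6 arrays below it. The difference between the groups was 0.89 ± 0.16 (adjusted p = 0.00796).

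The dUTPase gene dut, which keeps uracil out of DNA, had levels of 7.77, 7.86 and 8.32 in Cu 0.6 and 6.57, 6.81 and 6.16 in CPF 0.6, against 7.28, 7.28 and 7.75 in control. It too lay on opposite sides of the control arrays, and its difference was 1.47 ± 0.26 (adjusted p = 0.00796). The helicase subunit gene mcm2 had levels of 5.61, 5.06 and 6.71 in Cu 0.6 and 4.06, 4.21 and 4.36 in CPF 0.6. Its Cu 0.6 arrays were spread, with replicate 3 highest, and its difference was 1.75 ± 0.39 (adjusted p = 0.0341). The polymerase alpha subunit pola1 differed by 1.2 ± 0.27 (adjusted p = 0.0382) and the flap endonuclease fen1 by 0.74 ± 0.16 (adjusted p = 0.029).

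The list median was 0.21, and all 3 Cu 0.6 arrays lay above all CPF 0.6 arrays for 26 of the 63 and below for 0, where 8.88% of all genes lay above. Dim genes made up much of the list, with both group means under 4 for 35. The called gene pola2 was among them, with means of 3.18 in Cu 0.6 and 2.76 in CPF 0.6. It was above 4 on 0 of the 30 arrays of the series. Replicate 3 was the highest Cu 0.6 array for 26 of the 43 probe sets that were higher with Cu 0.6. Without it, 0 of the 63 genes passed, and 0 passed without the arrays of title batch 3, while the medians stayed at 0.20 and 0.23. Without CPF 0.6 replicate 2, dut and pcna passed. Other probe sets of mcm3 and nusap1 gave differences near 0 (−0.02 and 0.01).

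**Figure D3:**
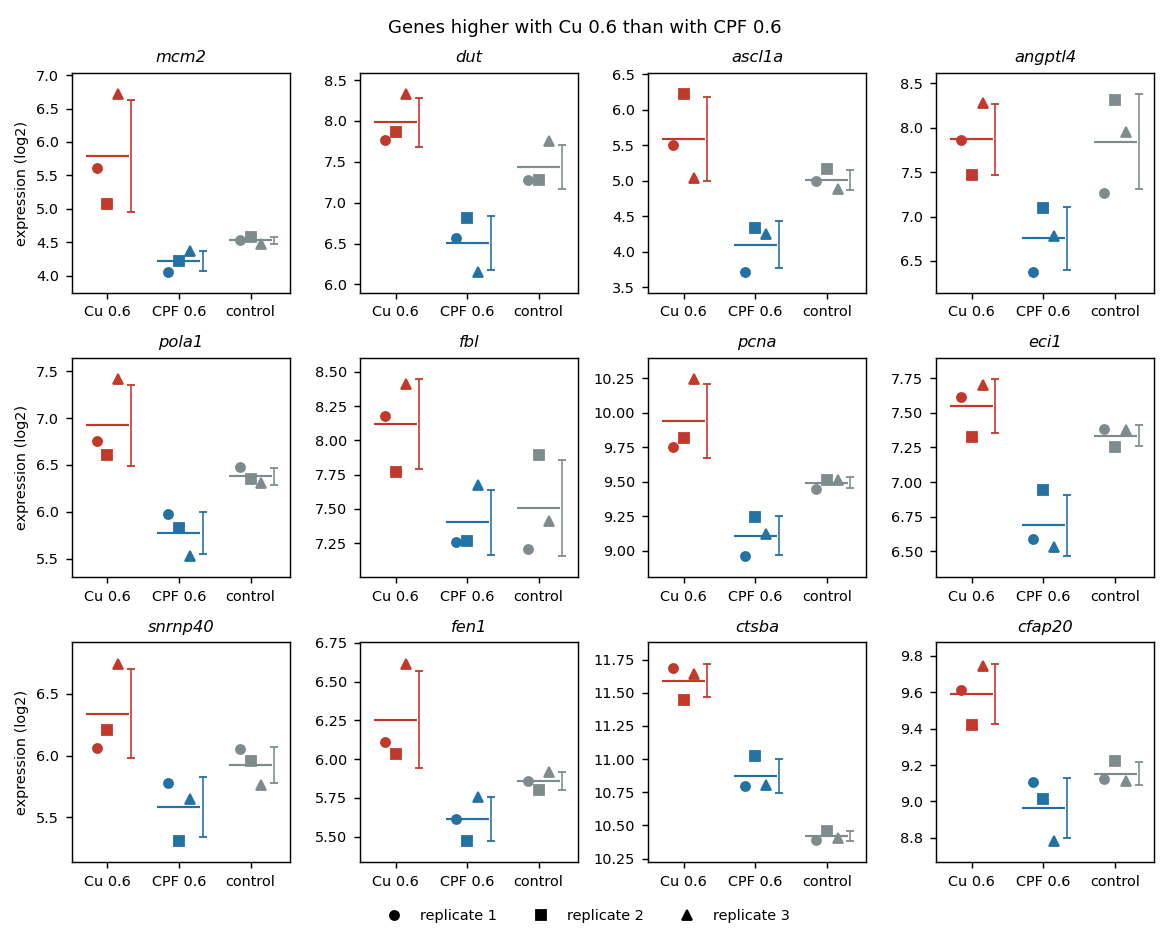
Levels (log2 expression) of the 12 named genes with the highest difference, for Cu 0.6, CPF 0.6 and control arrays; points are arrays, horizontal lines are means and bars are SDs over 3 arrays. The naming rule required no overlap, so the 3 Cu 0.6 arrays lie above all CPF 0.6 arrays in every panel. Control lies between the groups for pcna and pola1 and below both for ctsba.

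Among 54 neural precursor genes, ascl1a was higher, and 0 others passed. Its product is a transcription factor of neuronal progenitors. Its levels were 5.51, 6.22 and 5.04 in Cu 0.6 and 3.72, 4.33 and 4.24 in CPF 0.6, against 5.0, 5.16 and 4.88 in control. The groups did not overlap, with control nearer to Cu 0.6, and the difference was 1.44 ± 0.29 (adjusted p = 0.018), which passed in 2 of 6 leave-one-out fits. Fibrillarin (fbl), which methylates ribosomal RNA, differed by 0.93 ± 0.14 (adjusted p = 0.00273). It passed in 5 of 6 leave-one-out fits, but not in the one without CPF 0.6 replicate 2. With no batch term its difference was 0.72, and it did not pass there or with the batch as a random block.

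Cathepsin B (ctsba), a lysosomal protease, was the single gene of 31 lysosomal genes that passed. Its levels were 11.69, 11.45 and 11.64 in Cu 0.6 and 10.80, 11.02 and 10.80 in CPF 0.6, against 10.39, 10.46 and 10.41 in control. Both groups lay above all control arrays, and Cu 0.6 lay above CPF 0.6 by 0.68 ± 0.15 (adjusted p = 0.029), a call kept in 1 of 6 leave-one-out fits, the one without CPF 0.6 replicate 3. In the proteasome, which degrades proteins tagged with ubiquitin, psmd4a (0.46 ± 0.10) and psmc5 (0.33 ± 0.08) were higher, 2 of 50 genes. The differences were small throughout the list, with a median of 0.31, but 49 of 50 were positive, against 4453 of all 8793 genes. For 25 of the 50 all Cu 0.6 arrays lay above all CPF 0.6 arrays, where 8.88% of all genes did. This lean was not particular to the proteasome. Differences were also positive in 70 of 73 ribosomal protein genes, 70 of 87 oxidative phosphorylation genes and 30 of 40 heat shock genes. All Cu 0.6 arrays lay above all CPF 0.6 arrays for 8, 27 and 8 of these. For the ribosomal protein genes, 8 of 73 is near the 8.88% of all genes, so only their signs leaned. Of the 50, 0 passed without Cu 0.6 replicate 1, Cu 0.6 replicate 3 or CPF 0.6 replicate 1, and psmc5 passed in 1 of 6 leave-one-out fits. Of 18 ciliated cell genes, cfap20 was higher, at 0.60 ± 0.14 with a call kept in 2 of 6 such fits. The list's summed level was 8246 to 10806 units in Cu 0.6 and 4383 to 7746 in CPF 0.6, without overlap. Nonsensory ciliated cells border the sensory epithelium of the rosette. This separation was not particular to ciliated cells. Sums were also higher with Cu 0.6 without overlap for retina and lens genes and for 2 further lists. These were microglia and macrophages (21388 to 23642 units, against 15794 to 19544 in CPF 0.6) and connective tissue (3259 to 3699, against 2481 to 3096).

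Among genes of fatty acid oxidation and lipid supply, angptl4 and eci1 were higher with Cu 0.6. The secreted lipase inhibitor angptl4 had levels of 7.87, 7.47 and 8.28 in Cu 0.6 and 6.38, 7.10 and 6.78 in CPF 0.6, against 7.26, 8.31 and 7.95 in control. Cu 0.6 lay within the control range and CPF 0.6 below it, with a difference of 1.21 ± 0.28 (adjusted p = 0.0386). The isomerase eci1, which prepares unsaturated fatty acids for mitochondrial oxidation, had levels of 7.62, 7.33 and 7.70 in Cu 0.6 and 6.59, 6.94 and 6.53 in CPF 0.6, against 7.25 to 7.38 in control. It also lay below control with CPF 0.6, and it differed by 0.84 ± 0.17 (adjusted p = 0.0191). These were 2 of 45 genes of the list, whose median was 0.10 with 18 negative differences. Neither passed without CPF 0.6 replicate 2, and angptl4 passed in 1 of 6 leave-one-out fits.

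The gene hif1al, a relative of the oxygen-sensing factor HIF-1 alpha by its name, was lower with Cu 0.6, with control on the copper side. Its levels were 9.10, 9.12 and 9.13 in Cu 0.6 and 10.77, 10.45 and 10.03 in CPF 0.6, against 9.20, 8.80 and 8.88 in control. The Cu 0.6 arrays were nearly identical and sat in the control range, while every CPF 0.6 array was above it. The difference was −1.40 ± 0.29 (adjusted p = 0.0198), and it passed in 1 of 6 leave-one-out fits, the one without CPF 0.6 replicate 3. With all arrays in the fit, CPF 0.6 lay 1.52 above control (adjusted p = 0.081) and Cu 0.6 lay 0.12 above it (adjusted p = 0.83). The cell cycle inhibitor cdkn1bb, named after its values were seen, was lower with Cu 0.6 by −0.69 ± 0.14 (adjusted p = 0.0214), with Cu 0.6 at 0.05 and CPF 0.6 at 0.74 relative to control, and it passed in 2 of those 6 fits.

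The control arrays show on which side each difference lay. Of the 126 probe sets, the Cu 0.6 mean was farther from the control mean in 97 (68 lower and 29 higher with Cu 0.6) and the CPF 0.6 mean in 29 (15 lower and 14 higher). Over all 15502 probe sets the Cu 0.6 mean was the farther one in 10020. Counted by arrays, Cu 0.6 alone lay clear of all control arrays in 78, CPF 0.6 alone in 10, both in 25 and neither in 13, where over all probe sets these numbers were 1580, 998, 580 and 12344. These counts share the control arrays and describe where the levels lay. Against control, 154 probe sets passed for Cu 0.6 (0.993%) and 0 for CPF 0.6 (0.0%) with limma, where 1179 of the CPF 0.6 probe sets had an unadjusted p under 0.05.

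In 22 of the 126 probe sets, 11 lower and 11 higher with Cu 0.6, all arrays of the 2 groups lay on opposite sides of all control arrays. Over all probe sets 50 did (0.323%). Such a position requires groups that do not overlap, which held for 124 of the 126 and for 1845 of all 15502. The 126 were chosen on these same arrays, so the larger share among them comes in part with the choice. Beside pcna, dut, mcm2, pola1, fen1, npas4a, cfap20, psmd4a and psmc5, the 22 included genes named here after their values were seen. The phosphatase gene ssh2a, whose product activates the actin-severing protein cofilin, had levels of 4.55, 4.62 and 5.03 in Cu 0.6 and 6.25, 6.10 and 6.18 in CPF 0.6, against 5.32, 5.76 and 5.65 in control. Control lay between the groups with a gap on each side, and the difference of −1.46 ± 0.18 (adjusted p = 0.000617) was the one that passed also without the 4 arrays of the series that were rich in transcripts of liver or pancreas, CPF 0.6 replicate 2 among them. The product of the kinase gene mknk2b acts on the translation factor eIF4E. All 3 of its probe sets had the groups on opposite sides of control, with differences of −1.09, −1.04 and −1.16. They did not pass without those 4 arrays. The kinase gene pim1 had levels of 10.39, 10.35 and 10.63 in Cu 0.6 and 11.23, 11.45 and 11.31 in CPF 0.6, against 10.95, 11.02 and 10.79 in control, a difference of −0.84 ± 0.14 (adjusted p = 0.00572).

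Several stress programmes linked to either agent held no gene past the threshold in the fit used here. Of 23 genes for metal and iron handling, 24 for oxidative stress and 40 for heat shock and chaperones, 0 passed in either direction, with list medians of −0.05, −0.03 and 0.18. The gene mt2 has no values here. Other settings gave a few calls. With array weights 3 heat shock genes passed as higher and 1 oxidative stress gene as lower. Without CPF 0.6 replicate 3 these counts were 2 and 1. For the compared groups alone with the batch term, 1 metal and iron gene passed as lower. The ferritin gene fthl28 had levels of 6.68, 7.65 and 9.08 in Cu 0.6 and 11.62, 6.47 and 7.11 in CPF 0.6, so that a single CPF 0.6 array was high and the difference was −0.35 ± 1.33 (adjusted p = 0.949). The heat shock gene hsp70.3 differed by 0.56 ± 0.92 (adjusted p = 0.903). Spread of this size hides differences of several-fold, so these 2 genes are undecided.

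Acetylcholinesterase (ache), the target enzyme of the CPF oxon, had levels of 7.11, 7.45 and 7.13 in Cu 0.6 and 7.39, 6.68 and 7.43 in CPF 0.6. The groups overlapped, and the difference was 0.02 ± 0.31 (adjusted p = 0.989), a value whose sign changed in several settings. Of 18 cholinergic genes and organophosphate-binding hydrolases, abhd2b was the one that passed. The coagulation inhibitor tfpia differed by −0.46 ± 0.19 (adjusted p = 0.366), with Cu 0.6 at 0.70 and CPF 0.6 at 1.16 relative to control (adjusted p = 0.0662 and 0.0504). Of 24 synapse genes, 28 neuropeptide genes, 87 genes of oxidative phosphorylation and 73 ribosomal protein genes, 0 passed, and the medians of the last 2 lists were 0.12 and 0.10. Markers of bulb and telencephalon neurons also gave 0 of 15, with a median of 0.05. Among markers of other cell types, 0 passed for radial glia (9 genes), myelin (6), microglia and macrophages (14), neutrophils (5), erythrocytes (12), skeletal muscle (27), connective tissue (14), liver (27), exocrine pancreas (17) and retina and lens (24). Of 39 genes of mucous, skin and respiratory epithelium pvalb8 alone passed, as lower.

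**Figure D4:**
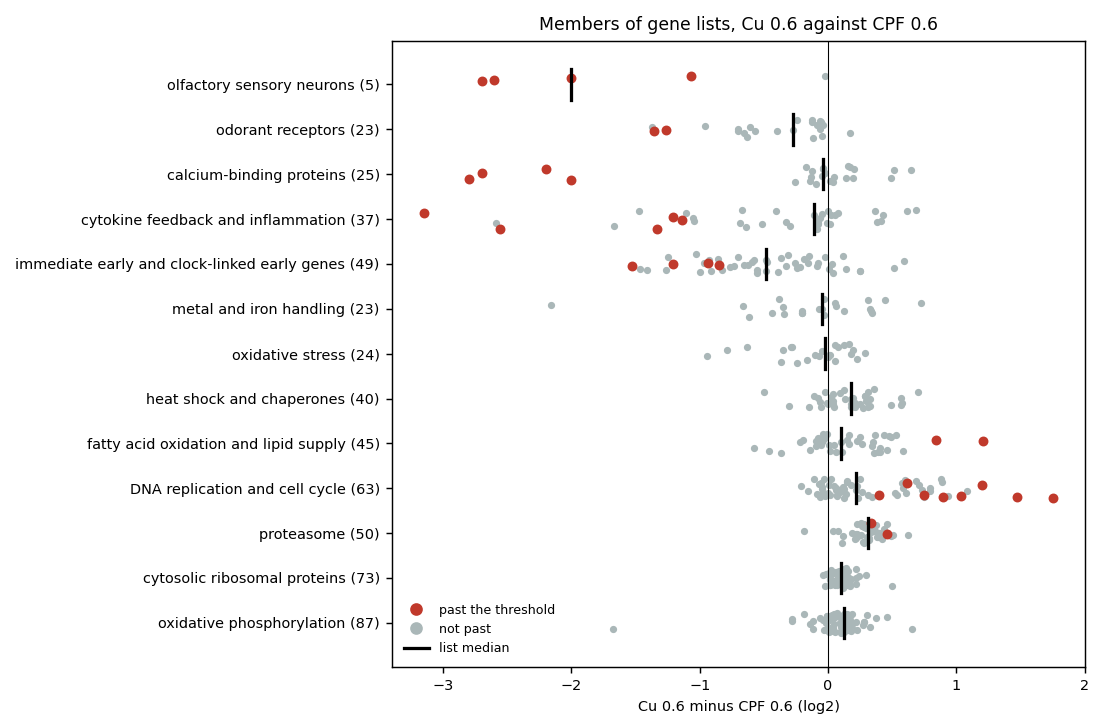
Difference of Cu 0.6 minus CPF 0.6 (log2) for the members of 13 gene lists, with the number of measured genes in brackets; red points passed the threshold, grey points did not, and black bars are list medians. Neuron markers lie at the left with a median of −2.0, and DNA replication genes reach 1.75 at the right.

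At the lower concentrations, measured on other arrays that share the batch terms of the fit, the 126 probe sets mostly kept their direction with smaller differences. At 0.25, copper minus CPF had the same sign in 121 of 126 (96.0%), where 50.7% of all probe sets kept theirs. At 0.1 it had the same sign in 113 (89.7%), where 63.4% of all did. The sets differed there: 80 of the 83 lower probe sets kept their sign (96.4%), but 33 of the 43 higher ones (76.7%). The median of the lower set was −0.55 at 0.1, −0.75 at 0.25 and −1.19 at 0.6, and that of the higher set was 0.07, 0.21 and 0.56. The sets were chosen at 0.6, so a larger size there comes with the choice. Copper and CPF were compared at 0.25 and at 0.1 with all arrays only. Any arrays there that were rich in transcripts of liver or pancreas, as CPF 0.6 replicate 2 was at 0.6, stayed in. The part of such arrays in the kept signs was not tested. The kept signs are thus not shown to be free of them.

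The values of single genes are given in the order 0.1, 0.25 and 0.6. The difference in si:dkey-92k1.9 was −0.74 at 0.1, −2.50 at 0.25 and −4.55 at 0.6, and in ompb it was −0.55, −1.19 and −2.61. That of gng13b was −0.76, −1.01 and −1.07, and that of angptl4 was 1.48, 1.43 and 1.21. For pola1 it was 0.11, 0.13 and 1.2. At 0.25, 37 of 15502 probe sets passed (0.239%), among them those of abhd2b, pvalb5, calb2a, gng13b, dusp1, sult2st1 and angptl4, and at 0.1 0 passed (0.0%) with limma, with 721 at an unadjusted p under 0.05. The difference at 0.6 was tested against that at 0.25, and 0 probe sets passed (0.0%) with limma, with 480 at an unadjusted p under 0.05, so no gene was shown to differ between these concentrations.

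**Figure D5:**
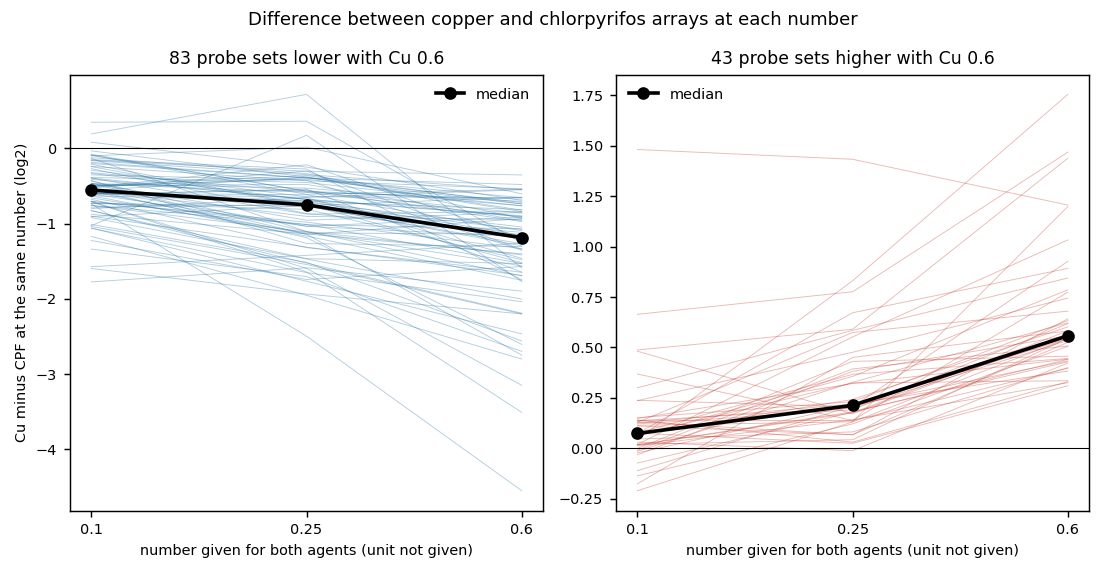
Difference of copper minus CPF (log2, vertical axis) at 0.1, 0.25 and 0.6 (unit not given) for the 83 probe sets lower and the 43 higher with Cu 0.6; each thin line is a probe set and the black line the median. Medians run from −0.55 to −1.19 in the lower set and from 0.07 to 0.56 in the higher set. Some lines cross 0, more of them in the higher set.

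The CPF 0.6 arrays differed among themselves in the genes that were lower with Cu 0.6. Replicate 3 was the lowest CPF 0.6 array in 65 of these 83 probe sets (78.3%), against 20.8% of all probe sets. Replicate 2 was the highest in 53 (63.9%), against 22.4% of all. The summed level of the 5 neuron markers was 3605 units on replicate 3, 6743 on replicate 1 and 7767 on replicate 2. Of these 5 markers, 4 are themselves among the 83 probe sets, so their order is no separate observation. The 83 were also chosen on these same arrays. Ciliated cell genes were also lowest on replicate 3. The part of these markers in the other differences was not tested.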

How the data were processed

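Zebrafish olfactory tissue was measured on 30 Affymetrix arrays, 6 of which are compared here. The authors deposited log2 expression values. Per the submitters' processing notes GCRMA was used, and the sources used here do not give its version. That they are log2 was read from their range, 1.02 to 15.73. Array medians lay between 5.53 and 5.63. Of 15617 probe sets, 115 controls were left out, and the other 15502 were tested without a filter or further normalization. The platform annotation gave 1 symbol to 10795, several to 135 and none to 4572. No gene was named from several symbols.

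limma 3.58.1 in R 4.3.3 fitted all 30 arrays with group means and fixed effects of the 3 title batches (12, 13 and 5 arrays, 18 residual degrees of freedom). P-values were adjusted over the 15502 probe sets by the Benjamini-Hochberg method, with a threshold of 0.05. Differences come from this fit and can depart from those of the array means. Sums of markers are on the linear scale. Precision is limited by 3 arrays a group. The fit was tested on simulated data.

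Named genes were the 12 highest and 12 lowest differences past the threshold with 1 symbol, a group mean of at least 5 and no overlap between the groups, up to 4 members past the threshold of each list, and a few genes named in any case, of which mt2 has no values here. Members and lists were chosen with earlier results of these data known. Replicates were numbered in accession order. Alternatives changed the batch term, the arrays used, the filter, the normalization, the prior and array weights.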

Additional observations from a re-analysis of the deposited data

How the results depend on the processing

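The count of probe sets past the threshold for Cu 0.6 against CPF 0.6, 126 with all arrays, was 73 without title batch 3, 69 in title batch 2 alone, 2 and 57 when only the compared groups were fitted without and with the batch term, 1 without the 4 arrays rich in transcripts of liver or pancreas, and 502 with array weights (293 higher and 209 lower), and it ranged from 13 to 255 when single arrays were left out. It lay between 111 and 149 in the other settings, with 75.2% lower after median centring, against 65.9%. The probe sets that passed were in part others than the 126. Of the 126, 59 passed without title batch 3 and 10 when only the compared groups were fitted with the batch term. With no batch term 99 of them passed, and with the batch as a random block 95. All 126 kept their sign in each setting that measured them (122 and 110 of them under the filters at 4 and 6), and 10 passed whichever array was left out. The settings reuse arrays on which the 126 were chosen, and the filters and the other prior leave each difference unchanged. A kept sign therefore comes largely with the choice. The count for the difference at 0.6 against that at 0.25, 0 with all arrays, was 1 with no batch term, 1 with the batch as a random block, 24 in title batch 2 alone, 1 for the 4 compared groups without batch term, 1393 with array weights, and 0 to 3 when single arrays were left out. The array weights were uneven. In Cu 0.25 they were 21.7 for replicate 2 and 0.21 and 0.30 for replicates 1 and 3, so that group's mean rests largely on 1 array there. In Cu 0.6 they were 3.47 for replicate 2 and 0.74 and 0.45 for replicates 1 and 3. The cause of the shifts between settings was not tested, beyond the fewer arrays that some settings have by construction.

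The values of 103 probe sets were followed, those of the named genes and all others with a symbol that passed. Of these values, 1114 kept direction and call, and 813 kept direction and lost the call. A further 12 turned their sign, in ache, fthl28 and hsp70.3, none of which passed in any setting. For ache the value was −0.083 without title batch 3, −0.21 without the 4 arrays, −0.024 with quantile normalization, −0.013 with median centring and −0.023 with array weights, with −0.33 to 0.14 when single arrays were left out. For fthl28 it was 1.41 in title batch 2 alone and for the compared groups with the batch term, and −1.58 to 1.13 when single arrays were left out. For hsp70.3 it was −0.065 (without Cu 0.6 replicate 3) to 1.22 when single arrays were left out.

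No paired analysis was possible because replicate numbers follow accession order and pair no arrays.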
